A study of Mus musculus with 216 samples.

Results

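The zinc finger genes described here are the 238 mouse protein-coding genes whose symbols begin with Zfp, Zscan or Zkscan and that lie on autosomes other than 4, 7 and 13. They were taken from GENCODE vM21 by symbol and chromosome, without Zfp42, Zfp57, Zfp352 and the Zscan4 genes, out of 21938 coding genes on chromosomes 1 to 19, X and Y. By symbol, 228 are Zfp, 4 are Zscan and 6 are Zkscan genes. Their gene bodies overlapped 154 of the 42890 domains of H3K9me3 that the authors mapped on those chromosomes, and no domain was shared by a pair of them. H3K9me3, trimethylation of lysine 9 of histone H3, is the mark of constitutive heterochromatin.

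The domains come from ChIP-seq of mouse embryonic stem cells of a line named dTKO, whose genotype, shared by every sample, is Suv39h1fl/fl ; Suv39h2-/- ; Setdb1fl/fl. Suv39h1, Suv39h2 and Setdb1 encode methyltransferases for this mark. Treated cells received 0.5 µM dTAG13 together with 100 µg/ml auxin, compounds that send tagged proteins for degradation, and the labels used here do not say which proteins carried the tags. The 216 samples are H3K9me3, HP1β and matched input sequencing runs, 54 of each of 4 kinds, at 0, 1, 3, 12, 24 and 48 h. At each time, 9 runs of a kind stand for 3 biological repeats with 3 runs each. The deposited table gives each domain 1 of 4 classes of decay, namely fast, intermediate, slow or residual. It holds no value per sample, so the depth behind a class is unknown, no difference could be set against the spread between repeats, and no test was made. Shares are given with 95% Wilson intervals, which cover counting error only. In a bulk ChIP, a domain present in part of the cells and a weaker domain in all of them cannot be told apart.

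Most of these genes encode C2H2 zinc finger proteins, which read DNA through tandem fingers. Many also carry a KRAB domain, through which they recruit the co-repressor Trim28 and, with it, Setdb1, so that the sites they bind gain H3K9me3. Such genes often sit in clusters, and their finger array is typically encoded by the last coding exon. In mammalian cells the 3′ exons of zinc finger genes are a known place of H3K9me3 within gene bodies.

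The results turn on the finger array, so 1 stretch of it is shown per decay class. Each is 182 bases of the coding strand of a 3′ exon inside a domain, read from GRCm38, and runs from 1 linker site to the third. The fast domain is at Zfp873 (chr10:82060208-82060389, plus strand). The intermediate one is at Zfp950 (chr19:61120171-61120352, minus strand), the slow one at Zfp160 (chr17:21025862-21026043, plus strand), and the residual one at Zfp354b (chr11:50922400-50922581, minus strand). Capitals mark matches to a motif made from the codons of the conserved linker that joins neighbouring fingers. The motif leaves the last base of each codon open, so a match can also encode a variant of the linker. The second match in Zfp160 is such a variant.
Zfp873: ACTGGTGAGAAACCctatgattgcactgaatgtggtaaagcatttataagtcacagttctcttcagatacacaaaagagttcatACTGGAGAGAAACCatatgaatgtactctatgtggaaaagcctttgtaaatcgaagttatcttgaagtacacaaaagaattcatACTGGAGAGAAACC
Zfp950: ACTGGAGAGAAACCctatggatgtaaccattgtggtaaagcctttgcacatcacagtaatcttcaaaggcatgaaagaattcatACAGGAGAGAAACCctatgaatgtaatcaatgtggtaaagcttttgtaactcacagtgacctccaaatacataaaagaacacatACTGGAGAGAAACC
Zfp160: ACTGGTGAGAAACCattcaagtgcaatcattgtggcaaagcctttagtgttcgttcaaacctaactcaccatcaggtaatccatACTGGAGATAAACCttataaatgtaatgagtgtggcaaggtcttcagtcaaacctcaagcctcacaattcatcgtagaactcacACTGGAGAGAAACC
Zfp354b: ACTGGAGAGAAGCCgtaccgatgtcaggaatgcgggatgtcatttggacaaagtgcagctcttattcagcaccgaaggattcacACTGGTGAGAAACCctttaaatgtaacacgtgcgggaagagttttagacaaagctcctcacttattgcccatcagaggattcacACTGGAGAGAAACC
Per class, a gene was chosen for which no other had more sites in the coding part of its 3′ exon domain. The stretch is the 182 bases there with the most sites. The 84-base step of the capitals in all 4 stretches thus follows from the choice and says nothing about class. Over the coding parts of all 3′ exons in domains, 234 of 331 gaps between successive sites were 84 bases (70.7%), the length of 1 finger with its linker, and 65 were 168 bases.

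Domains lay on 93 of the 238 zinc finger genes, or 39.1% (33.1 to 45.4%). The background was 24.2% of the 16381 other coding genes on the same chromosomes. Of the 93, 74 had 1 domain, 12 had 2 and 7 had 3 or more, and 145 genes had none. By length, 5.59% of the gene bodies lay in domains, against 3.47% of the bodies of other coding genes. The zinc finger genes of chromosomes 4, 7 and 13 had domains on 60 of 169 genes, or 35.5%, but 12.5% of their bodies in domains. Of the 154 domains, 20 also overlapped a gene that is no member, coding in 6 cases.

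The 154 domains were 107 intermediate (69.5%, 61.8 to 76.2%), 34 slow (22.1%, 16.3 to 29.3%), 10 residual (6.49%, 3.57 to 11.5%) and 3 fast (1.95%, 0.665 to 5.57%). Over all 42890 domains, the shares were 71.5% intermediate, 20.5% slow, 4.57% residual and 3.49% fast. On the same chromosomes alone they were 71% intermediate, 21.7% slow, 4.84% residual and 2.53% fast. Each of these background shares lies inside the interval for the zinc finger genes, so the class make-up as a whole did not stand out from the background by counting error. On the zinc finger genes of chromosomes 4, 7 and 13, 37 of 93 domains were slow, or 39.8% (30.4 to 49.9%), an interval that does not overlap that of the slow share here. Each of the 4 classes was thus present on the genes described here, and 66 genes carried an intermediate domain, 28 a slow, 8 a residual and 3 a fast one. A single class held all the domains of 82 of the 93 genes, but 74 genes had only 1 domain and so could have only 1 class. Among the genes with more domains (12 with 2, 7 with 3 or more), 11 held several classes.

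A pair of very long genes holds 35 of the domains, all in introns. Zfp697 on chromosome 3 is annotated over 371 kb and had 23 domains, 18 intermediate and 5 slow. Only 2 of the 23 met its principal transcript of 49.5 kb, and the other 21 lay in the annotated gene beyond it. An intron domain here is one that met no exon of the gene's own coding transcripts. Some of the 23 overlapped other annotated genes, among them Hsd3b4 and Gm10681. Zfp804b on chromosome 5 spans 576 kb and had 12 domains, 11 intermediate and 1 slow. Without both genes, 119 domains were left, of which 65.5% were intermediate, 23.5% slow, 8.40% residual and 2.52% fast.

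The classes differed by chromosome, and chromosomes 8 and 11 stood apart. On these chromosomes, 31 zinc finger domains were 15 slow (48.4%, 32.0 to 65.2%), 7 residual (22.6%, 11.4 to 39.8%), 9 intermediate (29.0%) and none fast. On the remaining chromosomes, 123 domains were 19 slow (15.4%, 10.1 to 22.9%), 3 residual (2.44%), 98 intermediate (79.7%) and 3 fast (2.44%). The same split held for all domains: 42.8% slow and 19.5% residual on chromosomes 8 and 11, against 17.7% slow and 2.08% residual on the remaining chromosomes with members. The zinc finger domains and all domains thus differed in the same direction between these chromosomes and the rest. Chromosome 8 held 5 of the 10 residual domains, and without it the residual share was 3.68% of 136 domains, inside the interval for all 154. What sets chromosomes 8 and 11 apart was not tested.

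**Figure D1:**
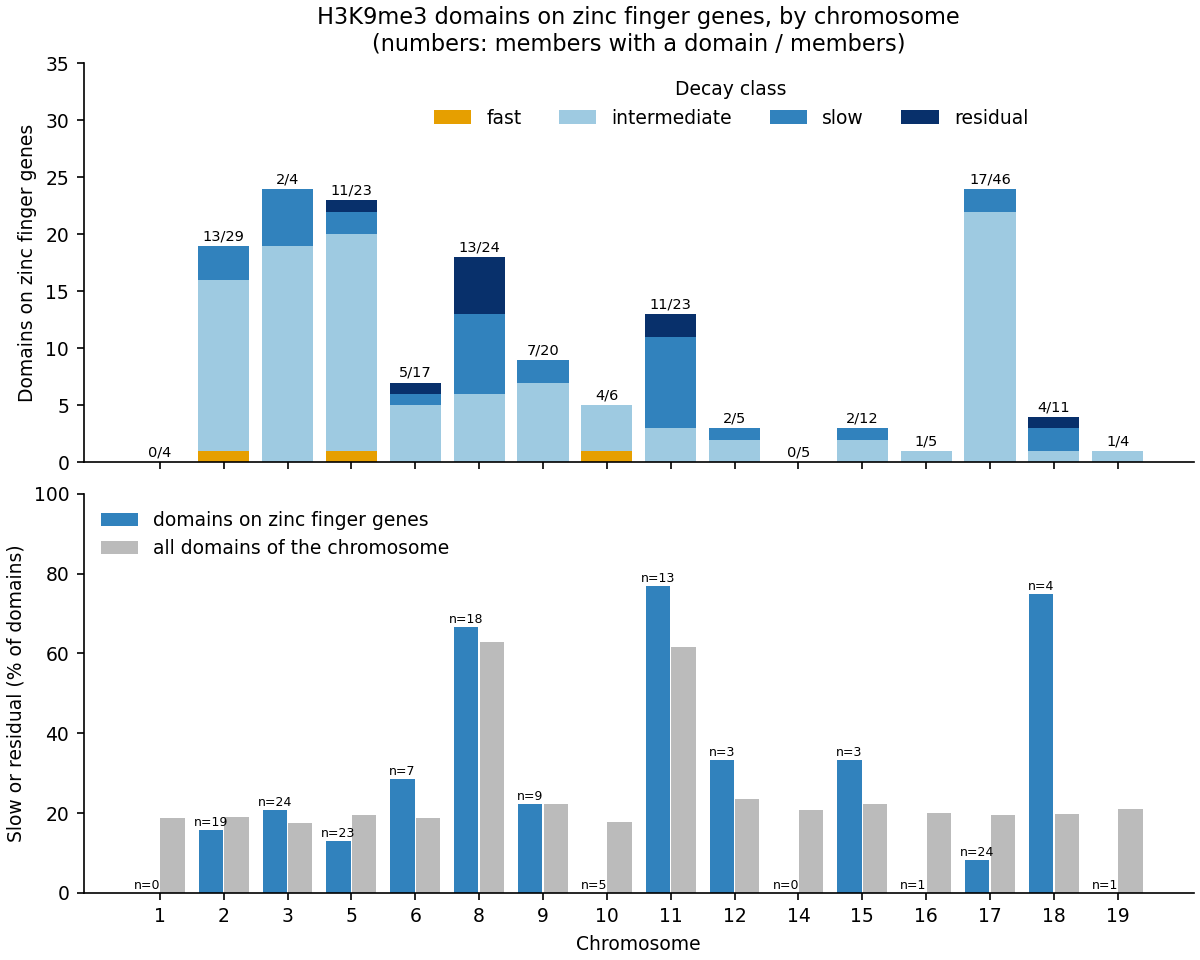
Top, number of H3K9me3 domains on zinc finger genes (vertical axis) per chromosome, stacked by decay class, with members holding a domain over all members printed above each bar. Bottom, slow plus residual domains as a percentage, for zinc finger genes (blue, with their number of domains) and for all domains of the chromosome (grey): both are high on 8 and 11, and the bar of chromosome 18 rests on 4 domains.

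On chromosome 8, 13 of 24 members had 18 domains, of which 7 were slow, 5 residual and 6 intermediate. Zfp423, a partner of Ebf factors in neural and fat cell development, held 3 of the 5 residual domains together with 1 slow and 1 intermediate one. Zfp703, a co-repressor of the NET family, and Zfp319 held the other 2. On chromosome 11, 11 of 23 members had 13 domains, of which 8 were slow, 2 residual and 3 intermediate. The residual domains were at Zfp354b and Zfp652.

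Chromosome 17 has the most members, 46, and 17 of them had 24 domains, of which 22 were intermediate and 2 slow. The slow ones, at Zfp160 and Zfp942, are 12.9 and 14.7 kb wide. The slow share there was 8.33%, and 17.9% over all domains of the chromosome. The former rests on 2 domains, and 14 of the 24 lay on neighbouring genes, from Zfp677 to Zfp946. No difference is therefore read from these shares. On chromosome 2, 13 of 29 members had 19 domains, with 15 intermediate, 3 slow and 1 fast. The 3 slow domains were those of Zfp937, Zfp442 and Zfp334, all on 3′ exons. On chromosome 5, 11 of 23 members had 23 domains, of which 19 were intermediate, 2 slow, 1 residual and 1 fast. On chromosome 9, 7 of 20 members had 7 intermediate and 2 slow domains, and on chromosome 6, 5 of 17 members had 5 intermediate domains, 1 slow and 1 residual.

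The remaining chromosomes hold few domains each. On chromosome 10, 4 of 6 members had 5 domains, 4 intermediate and 1 fast. On chromosome 3, 2 of 4 members had 24 domains, of which 23 are those of Zfp697. Chromosomes 12 and 15 had 3 domains each, 2 intermediate and 1 slow. Chromosome 18 had 4, of which 2 were slow, 1 residual and 1 intermediate. Chromosomes 16 and 19 had 1 intermediate domain each, and the 4 members on chromosome 1 and the 5 on chromosome 14 had none on their bodies.

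The second comparison set the 3′ exon, taken as the last exon of the principal transcript, against the promoter, taken as 1 kb to either side of its start. A domain met the 3′ exon of 57 zinc finger genes, or 23.9% (18.97 to 29.8%), and the promoter of 6, or 2.52% (1.16 to 5.39%). Among other coding genes of the same chromosomes the background was 4.72% at the 3′ exon and 4.69% at the promoter, nearly equal. The 3′ exon share of the zinc finger genes thus lay above this background, while the background at the promoter lies inside the interval of theirs. Their 3′ exons are longer, with a median of 2491.5 bases against 1177 in other coding genes. A longer exon is more easily met by a domain. The zinc finger genes of chromosomes 4, 7 and 13 had 3′ exon domains on 49 of 169 genes (29.0%) and promoter domains on 9 (5.33%). By bases, 16.7% of all 3′ exon sequence of the 238 genes lay in domains and 0.998% of promoter sequence, against 3.73% and 2.56% in other coding genes. Both windows were met in 3 genes, the 3′ exon alone in 54 and the promoter alone in 3, while 35 genes had body domains at neither.

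**Figure D2:**
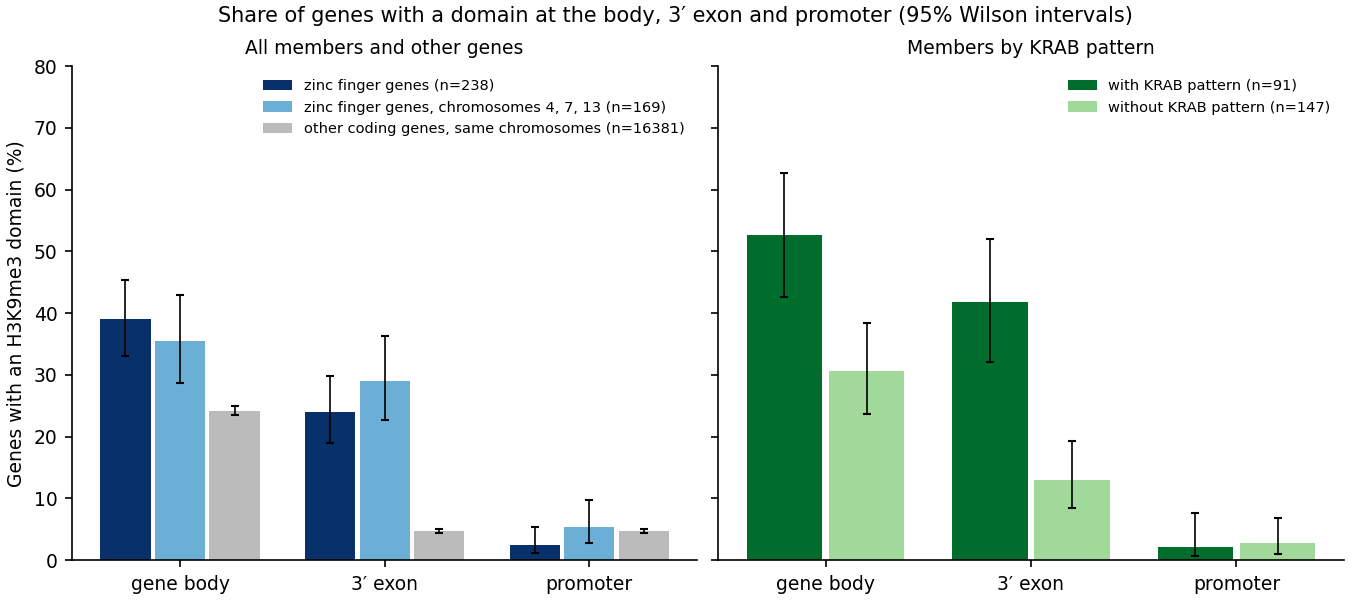
Percentage of genes with an H3K9me3 domain (vertical axis) at the gene body, 3′ exon and promoter, with 95% Wilson intervals for counting error. Left, zinc finger genes, those of chromosomes 4, 7 and 13, and other coding genes; right, members with and without the KRAB pattern, where 41.8% and 12.9% had a 3′ exon domain.

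Along the genes, coverage was lowest at the transcript start and highest just inside the 3′ exon. At the start itself, 2 of 238 zinc finger genes lay in a domain (0.840%), against 399 of 16318 other coding genes (2.45%). At 1 kb past the start of the 3′ exon, 57 of 235 zinc finger genes with several exons lay in a domain (24.3%), against 486 of 15359 other coding genes (3.16%). Of those 24.3%, 14.5 points were intermediate, 7.23 slow, 1.70 residual and 0.851 fast. At 3 kb past the start of the 3′ exon the share of zinc finger genes was 8.51%, and at 5 kb before that start it was 2.98%.

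**Figure D3:**
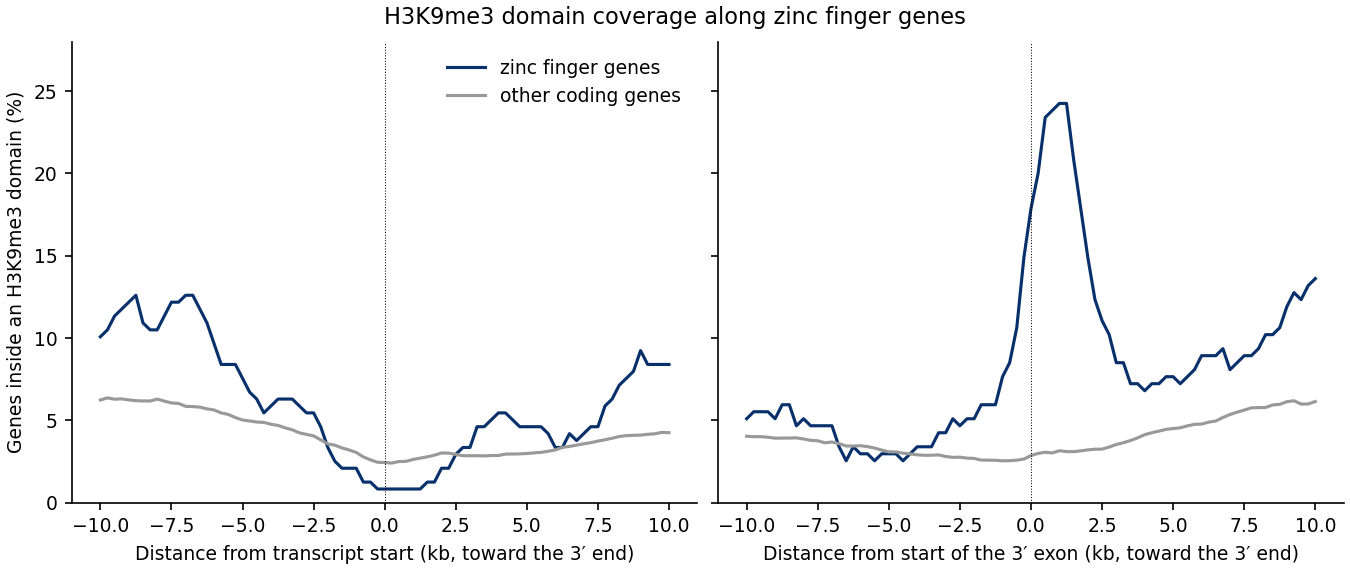
Percentage of genes inside an H3K9me3 domain (vertical axis) against distance in kb from the transcript start (left) and from the start of the 3′ exon (right), with positive values toward the 3′ end. Zinc finger genes (dark blue) peak at 24.3% at 1 kb into the 3′ exon, where other coding genes (grey) are at 3.16%.

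The domains reached over the exon to differing extents. In the median covered gene 76.5% of the 3′ exon lay in the domain, 17 exons were covered whole and 45 to at least 50%. Of the 57 domains, 11 lay wholly inside the exon, and the median domain had 73.6% of its length on it. Wide domains ran far beyond it: 15 had under 50% on the exon, and pooled over all 57, 46.9% of domain bases lay on it. Coverage was denser on the coding part of the exons: 28.2% of their 278 kb of coding sequence lay in domains, against 9.11% of their 427 kb of noncoding sequence. Noncoding sequence made up 33.2% of the covered exon bases.

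By class, the 57 3′ exon domains were 34 intermediate (59.6%, 46.7 to 71.4%), 17 slow (29.8%, 19.5 to 42.7%), 4 residual (7.02%, 2.76 to 16.7%) and 2 fast (3.51%). Without chromosomes 8 and 11, 30 of 41 were intermediate (73.2%, 58.1 to 84.3%). The 6 promoter domains were 3 intermediate, 2 slow and 1 residual, too few to give shares a useful interval (slow, 9.68 to 70.0%). Of the 86 domains in introns, 69 were intermediate (80.2%, 70.6 to 87.3%), 13 slow (15.1%, 9.05 to 24.2%), 4 residual and none fast. Without Zfp697 and Zfp804b, 40 of 51 intron domains were intermediate (78.4%) and 7 slow (13.7%). Intron shares without chromosomes 8 and 11 were not computed. Over the 3′ exon domains of other coding genes, 51.7% were intermediate, 21.6% slow, 22.5% residual and 4.21% fast, and the promoter domains of those genes were 28.8% residual. The residual share at 3′ exons was thus lower on the zinc finger genes than on other coding genes, 7.02% against 22.5% (19.7 to 25.7%). Without chromosomes 8 and 11, residual domains were 1 of 41 at zinc finger 3′ exons (2.44%, 0.432 to 12.6%) and 11.8% (9.33 to 14.8%) at those of other coding genes, so that the intervals then overlap.

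Slow 3′ exon domains were found most on chromosomes 8 and 11, with 9 of 16 domains there (56.3%, 33.2 to 76.9%), against 8 of 41 on the rest (19.5%, 10.2 to 34.0%). Over all domains, 42.8% were slow on chromosomes 8 and 11 and 17.7% on the remaining chromosomes with members. Each of these background shares lies inside the matching interval, so the split is not particular to zinc finger 3′ exons. The 9 were at Zfp930, Zfp964, Zfp617, Zfp90 and Zfp612 on chromosome 8 and at Zfp354c, Zfp454, Zfp2 and Zfp286 on chromosome 11. The other 8 were at Zfp937, Zfp442 and Zfp334 on chromosome 2, Zfp11 on 5, Zfp810 on 9, Zfpm2 on 15, and Zfp160 and Zfp942 on 17. Their widths ran from 1.2 to 14.7 kb with a median of 2.7 kb, and those of the intermediate ones from 0.9 to 22.2 kb with a median of 2.4 kb.

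The 2 fast 3′ exon domains differ in extent. At Zfp873 on chromosome 10, an 11.1 kb domain (chr10:82058101-82069200) covered the whole 2065-base exon and ran on past the gene, and 58.0% of the gene body lay in domains. Its protein has 16 finger matches and a KRAB match. At Zfp518b on chromosome 5, a 2.1 kb domain (chr5:38671801-38673900) lay inside the 6370-base exon and covered 33.0% of it. That protein has 4 finger matches and none for KRAB. The third fast domain, 1.8 kb at Zfp385b, overlapped another exon.

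The 4 residual 3′ exon domains were at Zfp703 and Zfp319 on chromosome 8, Zfp354b on 11 and Zfp853 on 5. At Zfp703 a 3.9 kb domain covered 97.9% of the exon and 94.3% of the 4.14 kb gene, the largest share of a gene body among the 238. It began 147 bases past the transcript start, so it met promoter and 3′ exon alike. The finger pattern was not found in its protein. The domains of Zfp319, Zfp853 and Zfp703 had GC contents of 59.1, 53.9 and 60.6%, and that of Zfp354b 43.8%.

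Among intermediate 3′ exon domains, the widest was 22.2 kb at Zfp951 on chromosome 5, with 47.2% of the gene in domains. Zfp938 on chromosome 10 had 60.6% of its body in domains, through 1 domain of 15.0 kb. Zfp932, which silences endogenous retroviruses in mouse embryonic stem cells, had 59.1%, through 1 domain of 9.3 kb that covered its 3′ exon whole. Zfp386 on chromosome 12 and Zfp706 on 15 had the longest stretches of 3′ exon in intermediate domains, 4456 and 3897 bases, both the whole exon. Zfp706 encodes a short protein of 76 residues with 1 finger match.

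In 11 genes a 3′ exon domain was accompanied by another body domain. All domains of the gene shared a class in 7 of them, which were Zfp951, Zfp995, Zfp943, Zfp994 and Zfp119a (intermediate) and Zfp964 and Zfp286 (slow). Since 69.5% of all 154 domains were intermediate, domains of unrelated genes would often share that class too. No link within a gene is read from the count. In Zfp442 and Zfpm2 a slow 3′ exon domain stood beside intermediate domains in introns. Zfp873 had a fast 3′ exon domain and an intermediate one in an intron, and Zfp872 an intermediate 3′ exon domain and a slow one over its promoter.

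The promoter domains lay at differing distances from the start. The transcript start itself was covered in 2 genes, Zfp786 on chromosome 6 (intermediate, 3.3 kb, with 67 bases on the gene) and Zfp872 on chromosome 9. The domain of Zfp709 on chromosome 8 (intermediate, 1.2 kb) ended 819 bases upstream, that of Zfp488 on chromosome 14 (slow, 8.7 kb) 437 bases upstream and that of Zfp236 (intermediate, 8.7 kb) 918 bases upstream. The domain of Zfp703 is described above. Zfp488 and Zfp236 had no domain on their bodies. The count depends on the window: it was 38 genes (16.0%) with 5 kb to either side and 16 (6.72%) over all annotated starts, against 13.4% and 6.18% of other coding genes.

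Zfp872 was the gene whose whole promoter lay in a domain, a slow one of 19.2 kb (chr9:22173301-22192500) with 75.3% of its bases masked as repeat. Its promoter is shown for that reason, as the 250 bases before the RefSeq start (GRCm38.p6, chr9:22187916-22188165, plus strand), with CpG sites in capitals.
Zfp872: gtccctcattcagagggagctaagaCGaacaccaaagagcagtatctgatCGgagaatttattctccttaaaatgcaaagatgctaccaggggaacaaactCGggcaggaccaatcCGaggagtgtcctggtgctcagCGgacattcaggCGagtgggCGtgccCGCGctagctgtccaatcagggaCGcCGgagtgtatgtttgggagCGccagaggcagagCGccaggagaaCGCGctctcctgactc
It holds 15 CpG sites, with a GC content of 56.4%, where the median promoter of the same table has 6 sites and the median zinc finger promoter 11. At least 1 CpG is present in 92.1% of all promoters. The table held promoters for 192 of the 238 members.

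Genes with more fingers had a 3′ exon domain more often. Finger matches were counted with the pattern C-X(2,4)-C-X(12)-H-X(3,5)-H on the translated principal transcript, and 15 members had none. A 3′ exon domain was found in 3 of 33 genes with 0 to 2 fingers (9.09%), 6 of 60 with 3 to 7 (10%), 24 of 86 with 8 to 12 (27.9%) and 24 of 59 with 13 or more (40.7%). The share of 3′ exon bases in domains was 9.39, 5.00, 19.8 and 26.3% in the same order. The median length of the 3′ exon was 2712, 1978, 2503 and 2490 bases. Genes with a 3′ exon domain had a median of 12 fingers (quartiles 9 and 15), and genes with no domain 8 (quartiles 4 and 11). The genes with the most fingers were exceptions, since Zfp142 with 33 and Zfp236 with 29 had no domain on their bodies.

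**Figure D4:**
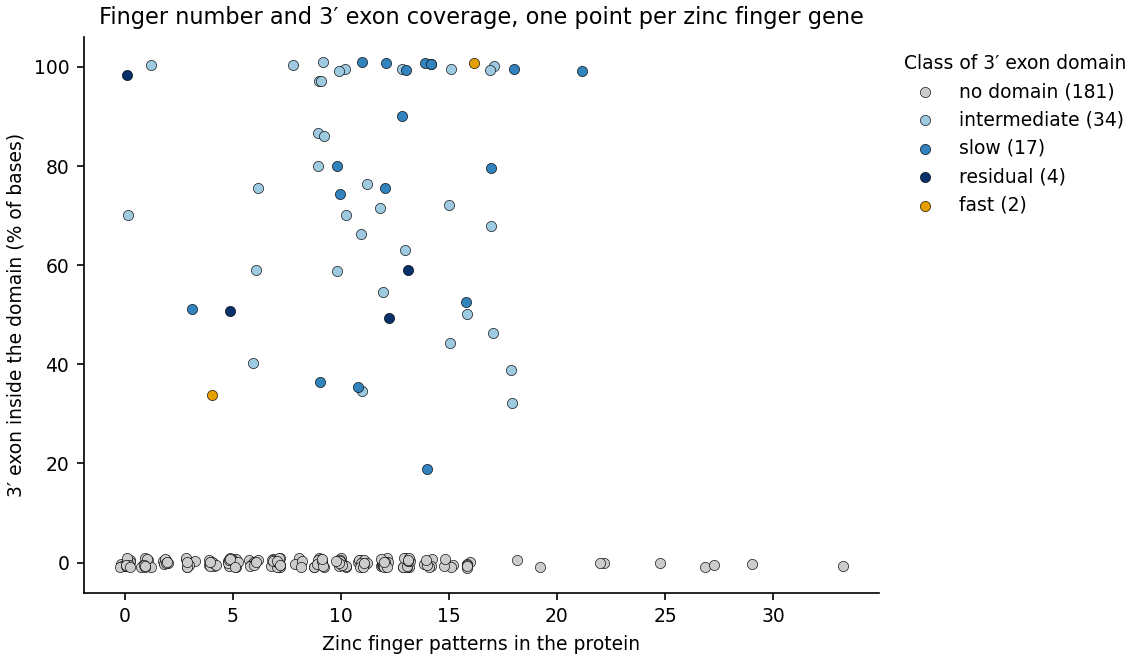
Share of the 3′ exon inside its domain (vertical axis, % of bases) against the number of finger matches in the protein (horizontal axis), 1 point per zinc finger gene, coloured by the class of the 3′ exon domain and shifted slightly at random to show overlaps. Grey points are the 181 genes with no 3′ exon domain; the coloured points gather at 8 fingers and more.

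The KRAB pattern, taken as [DE]V-X(3)-F-X(2)-[DE][DE]-W, was found in 91 members. Of these, 38 had a 3′ exon domain (41.8%, 32.2 to 52.0%), against 19 of the 147 without the pattern (12.9%, 8.43 to 19.3%). Among genes with at least 3 fingers and no KRAB pattern it was 17 of 116 (14.7%, 9.36 to 22.2%). The 3′ exon domains of KRAB members were 24 intermediate, 12 slow, 1 residual and 1 fast, and those of the others 10 intermediate, 5 slow, 3 residual and 1 fast. The promoter was met in 2 of 91 genes with the pattern and 4 of 147 without.

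The linker motif was found in nearly all intermediate and slow 3′ exon domains. The motif searched was ACNGGNGANAANCC, with GGNTTNTCNCCNGT on the other strand, made of the bases shared by all codons for the linker. Since fingers are encoded there, its presence in 3′ exons follows from gene structure, and its counts only describe the domains. It was present in 51 of the 57 3′ exon domains (89.5%), in 1 of 86 intron domains and in none of the 6 promoter domains. Across domains on no member the background was 0.969%, though domains differ in length, and 0.0609% of all RefSeq promoters hold it. It was found in 32 of 34 intermediate, 16 of 17 slow, 2 of 4 residual and 1 of 2 fast 3′ exon domains. The 6 domains without it were at Zfp518b, Zfp853, Zfp637, Zfp703, Zfp706 and Zfpm2. The intron domain with it, at Zfp943, has 7 sites. The whole 3′ exon held a site in 53 of the 57 genes with a 3′ exon domain (93.0%), against 99 of the 181 without one (54.7%). Among members with the KRAB pattern these shares were 38 of 38 and 51 of 53 (96.2%), so that there nearly all exons held a site, in a domain or not. Of the 261 domains in the genome with at least 3 sites, 49 lay on the genes described here and 41 on the zinc finger genes of chromosomes 4, 7 and 13, and 171 of the 261 were intermediate, 74 slow (28.4%), 13 residual and 3 fast.

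Domains on 3′ exons and in introns were made of different sequence. The median 3′ exon domain apart from that of Zfp703 had 26.4% of its bases soft-masked as repeat (quartiles 12.5 and 36.7%), and the median intron domain 75.9% (quartiles 41.1 and 91.2%). At least 50% of bases were masked in 3 of 57 3′ exon domains and in 61 of 86 intron domains. Of 31-base words sampled from each domain, 92.5% were found once in the genome in the median 3′ exon domain, against 37.4% in the median intron domain. Without Zfp697 and Zfp804b, the intron medians were 76.6% masked and 54.5% unique. Over all 42890 domains the medians were 71.3% masked and 47.6% unique. The 10 residual domains had a median GC content of 53.0% and 6.13% masked bases. The medians were 50.2% and 11.6% for residual domains on other coding genes, and 47.8% and 17.0% for all residual domains.

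**Figure D5:**
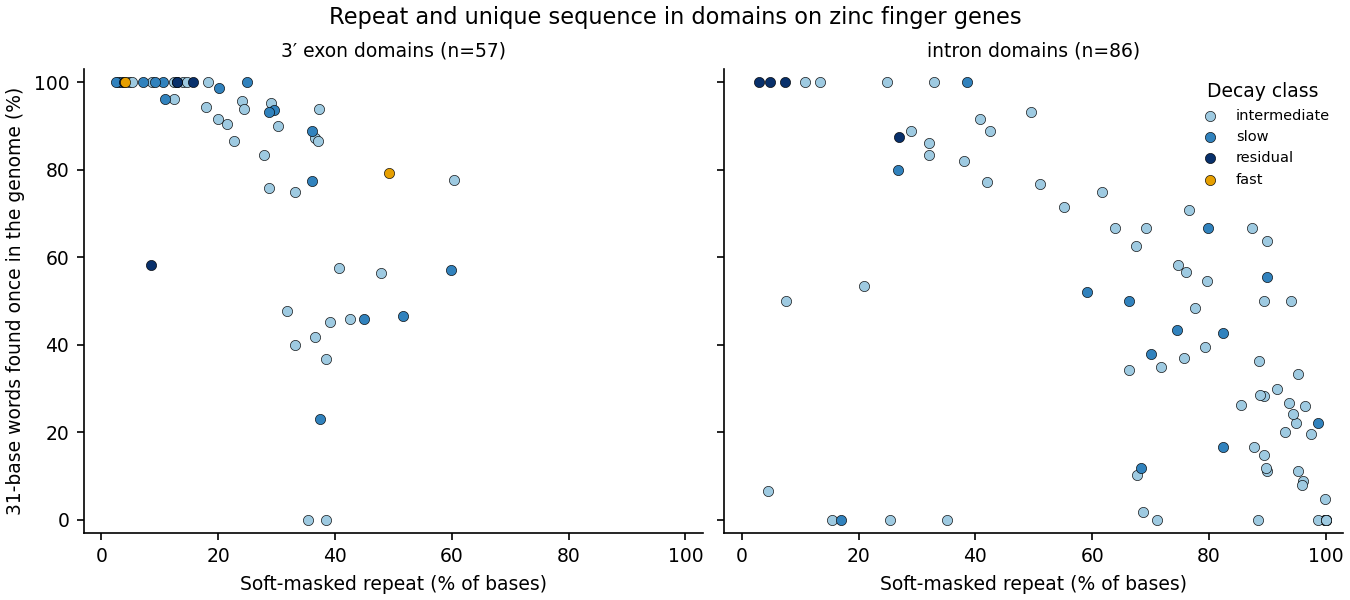
Percentage of 31-base words found once in the genome (vertical axis) against percentage of soft-masked bases (horizontal axis), 1 point per domain coloured by decay class, for the 57 3′ exon domains (left) and the 86 intron domains (right). The 3′ exon domains lie mostly at the upper left, with little repeat and unique sequence, and the intron domains spread to the lower right.

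In 17 of the 154 domains, 16 intermediate and 1 slow, none of the sampled words was unique. Reads there may be hard to tell from those of other copies, which would make the class less certain. Read length and read placement were not examined. Of the 17 domains, 14 lay in introns, with 10 on Zfp697 and Zfp804b, so the intron class shares carry this limit too. The 2 on 3′ exons were at Zfp433 and Zfp781, close together on chromosome 10. Zfp781 also had 17 linker sites in its domain, the most among the 154, while its annotated protein of 243 residues held no finger match.

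Clusters of neighbouring genes differed in how many members carried a 3′ exon domain. They were taken as zinc finger genes at most 250 kb apart, and in clusters of at least 4 members 24 of 79 genes had a 3′ exon domain (30.4%, 21.3 to 41.2%), against 33 of 159 in smaller ones (20.8%, 15.2 to 27.7%), with intervals that overlap. In the cluster from Zfp433 to Zfp938 on chromosome 10, all 4 genes had a 3′ exon domain, 3 intermediate and 1 fast. In that from Zfp354c to Zfp354a on chromosome 11, 4 of 6 had one, slow at Zfp354c, Zfp454 and Zfp2 and residual at Zfp354b. The 18-member cluster of chromosome 17 from Zfp677 to Zfp946 had 14 domains on 8 genes, 13 of them intermediate, and 5 genes with a 3′ exon domain. The 3 genes from Zfp119a to Zfp119b on the same chromosome each had an intermediate 3′ exon domain. The 4 genes from Zfp968 to Zfp966 on chromosome 2 had no domain. In the domains of the next covered genes, Zfp973, Zfp970 and Zfp972, 0, 0 and 8.89% of sampled words were unique. Whether a domain could be called on the 4 genes was not tested.

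Of 18 members listed for a known role, 6 had a domain (33.3%), near the 39.1% of all members. Zfp445, which guards imprinted DNA methylation, had 2 intermediate domains over 41.9% of its body but none on its 3′ exon. Zfp932 and Zfp423 are described above. Zfpm2, a Gata cofactor in heart development, had a slow domain over 51.3% of its 3′ exon and an intermediate one in an intron. Zfp335 had 1 intermediate domain in an intron, and Zfp521, a relative of Zfp423 with 27 fingers, 1 residual domain of 1.8 kb. The 12 with none included Zfp809, which silences retroviral DNA, Zfp281 and Zscan10, which act in pluripotency, Zfpm1, a cofactor of Gata1, and the RNA-binding Zfp36l1 and Zfp36l2. The others were Zfp217, Zfp148, Zfp91, Zkscan1, Zfp207 and Zfp384.

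The partners through which KRAB proteins act were examined as 13 listed genes, of which 4 had a domain (30.8%) and none a 3′ exon domain, near the 24.2% and 4.72% of other coding genes. Setdb1 had 2 residual domains and 1 intermediate one, Pphln1 1 residual and 1 intermediate, and Smarcad1 and Atf7ip 1 intermediate each. Trim28, the HP1 genes Cbx1, Cbx3 and Cbx5, and Atrx, Daxx, Morc3, Fam208a and Mphosph8 had none.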

How the data were processed

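H3K9me3, HP1β and input DNA of mouse embryonic stem cells were sequenced, and the 216 samples are grouped by assay and time per the labels. The submitters' processing notes name bedtools, deepTools, SAMtools 1.1 and Bowtie2 2.3.4.1, with the builds GRCm38, mm10, mm9 and dm6. For each domain the authors' deposited table holds coordinates on a 300 bp grid and a decay class written as a word, and no sample has a column in it. How domains were called, and the class bounds, were not given in the sources used here. Signal tracks and HP1β data were not used here.

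Coordinates, mm10 (GRCm38), are printed 1-based. An overlap needed 1 bp with GENCODE vM21 genes. The principal transcript was the first by APPRIS, then coding length, then length. Proteins were translated from GENCODE coding sequences, and patterns are not domain calls. Words of 31 bases were sampled every 100 bp and counted on chromosomes 1 to 19, X and Y. Overlap, word and pattern counts were tested on simulated data. Python 3.11.15, pandas 2.3.3, numpy 2.4.6 and scipy 1.17.1 were used. Members, lists and clusters were chosen with earlier results of these data known. Genes were named by most covered bases per class and window, by covered share and by a list of known roles; full lists and exceptions were added after values were seen. Alternatives covered the overlap rule, windows, chromosomes and gene sets.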

Additional observations from a re-analysis of the deposited data

How the results depend on the processing

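The number of zinc finger genes with a domain and their class shares were recomputed with the domain midpoint or 50% of the domain in the gene, with at least 3 fingers, without domains shared with other genes, by covered length and with each gene once. The 3′ exon and promoter values were recomputed with other windows and transcripts; promoter width does not bear on the 3′ exon. Leaving out domains under 900 bp removed none. Of 79 values recomputed otherwise, 69 stayed within the interval of the reported share or within 1.5 times the reported count. The 79 include promoter shares, whose intervals rest on 6 domains and are wide (slow, 9.68 to 70.0%). Staying within those intervals says little. Without chromosomes 8 and 11 the intermediate share was 79.7%, the slow share 15.4% and the residual share 2.44%; at 3′ exons the slow share was 19.5% and the residual share 2.44%, and at promoters the residual share was 0%. By covered length the slow share was 29.5%. The promoter residual share was 0% over domains that meet 1 window and not the other. Genes with a promoter domain numbered 38 with 5 kb and 16 over all transcripts. The cause was not tested. Leaving out each of 16 chromosomes in turn gave 76 to 93 genes with a domain, and shares of 65.4 to 74.3% intermediate, 18.4 to 24.6% slow, 3.68 to 7.69% residual and 1.34 to 2.31% fast. Leaving out Zfp697, alone or with Zfp804b, was added after seeing the data. No paired analysis was possible because the table holds no value per sample.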
